A study of Homo sapiens with 8 samples.

Results

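The SLC25 genes encode the mitochondrial carrier family, and their mRNAs were compared between 22Rv1 cells given an inhibitor of the kinase MARK3 and 22Rv1 cells given solvent. Members were all protein-coding genes of the deposited count files whose GENCODE symbol starts with SLC25A and a number. This gave 48 genes of the 58735 listed. Another 50 listed rows with such a symbol, pseudogenes and non-coding transcripts, were left out. 22Rv1 is an established human prostate carcinoma line that expresses the androgen receptor and was derived from a xenograft that relapsed after castration. Total RNA was sequenced from 4 DMSO-treated samples (control) and 4 samples treated with PCC0208017 (MARK3i), which the labels describe as a MARK3 inhibitor. All 8 samples share the same cell line with no genetic change named. Neither the dose nor the length of treatment is given in the labels. Nothing says that replicates came from separate cultures, so the tests reflect only how much these 8 samples varied, possibly for technical reasons.

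SLC25 carriers sit in the mitochondrial inner membrane and exchange solutes that cannot cross it unaided: ADP and ATP, phosphate, citrate and other carboxylates, amino acids, acylcarnitines, coenzymes, glutathione and iron. They are encoded in the nucleus, made in the cytosol and inserted through the TOM complex, small TIM chaperones and the TIM22 complex. In prostate cells they are of interest because the normal gland exports citrate, whereas carcinoma cells oxidise it or use it for lipid synthesis. A few members work elsewhere: SLC25A17 is a peroxisomal carrier and SLC25A46 lies in the mitochondrial outer membrane, so the family name does not give the location of every member.

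Total counts per library ran from 12672817 to 21271127. Levels are given in CPM, library-size-scaled counts with a TMM correction for composition, and are listed in the order of replicates 1 to 4. Fold changes are log2 of MARK3i over control with their standard error (SE). Unless another setting is named, the adjusted p of a gene was obtained with edgeR (quasi-likelihood F test) and the Benjamini-Hochberg method over all 16452 tested genes (alternative settings adjust over the genes they test), and a gene was called at an adjusted p under 0.05. Libraries of different groups stood far apart, with a chi-square per degree of freedom of 35.02 to 46.41 between groups and 1.71 to 9.47 within them. Among the controls, replicates 1 and 2 (1.74) and replicates 3 and 4 (1.71) lay closer than the other control pairs (3.48 to 4.68), and no label names a batch. The 8 luminal prostate markers, which include the androgen receptor and KLK3, summed to 2705 to 2792 CPM in controls and 1822 to 1917 CPM in MARK3i libraries. Of these markers 6 of 8 were called lower, against 28.3% of all tested genes. Fibroblast markers summed to at most 21.9 CPM, leukocyte markers to at most 2.61 CPM and endothelial markers to at most 0.0792 CPM, with CD3E, PECAM1 and CDH5 at 0 in every library.

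The summed mRNA of the family took a smaller share of the RNA after MARK3i. Its 48 genes summed to 5781 ± 148 CPM (SD, n = 4) in controls and 4957 ± 182 CPM (SD, n = 4) with MARK3i. As an unscaled share of all counts this was 0.546, 0.547, 0.559 and 0.573% in controls and 0.517, 0.514, 0.498 and 0.521% with MARK3i, so the groups did not overlap. Abundant members weigh most in this sum. SLC25A6 went from a mean of 1788 to 1384 CPM and SLC25A39 from 469.6 to 332.3 CPM, whereas SLC25A3 was at 861.4 and 857.3 CPM. Only 17 of 41 tested members were called lower, so the lower sum is not a fall of every member. In bulk RNA, a lower level per cell and a change in the mix of cells cannot be told apart.

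Single members moved in both directions. Of 41 members with enough counts to test, 27 (65.9%) were called, 10 higher (24.4%) and 17 lower (41.5%). Over all tested genes, 58.0% were called, 29.8% higher and 28.3% lower. In 28 members (68.3%) the libraries of the groups did not overlap, against 51.0% of all tested genes. These 28 were the 27 called members and SLC25A12. Changes were mostly moderate: 12 of 41 members (29.3%) were called with an absolute log2 fold change of at least 0.5, against 30.6% of all tested genes, and 1 member, SLC25A34, with at least 1, against 10.3%. The median log2 fold change was -0.07 over the members and 0.02 over all tested genes. Scaling by total counts shifted the median of all tested genes to 0.13 and that of the members to 0.04, and the share of higher among all calls from 51.3% to 63.6%.

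**Figure D1:**
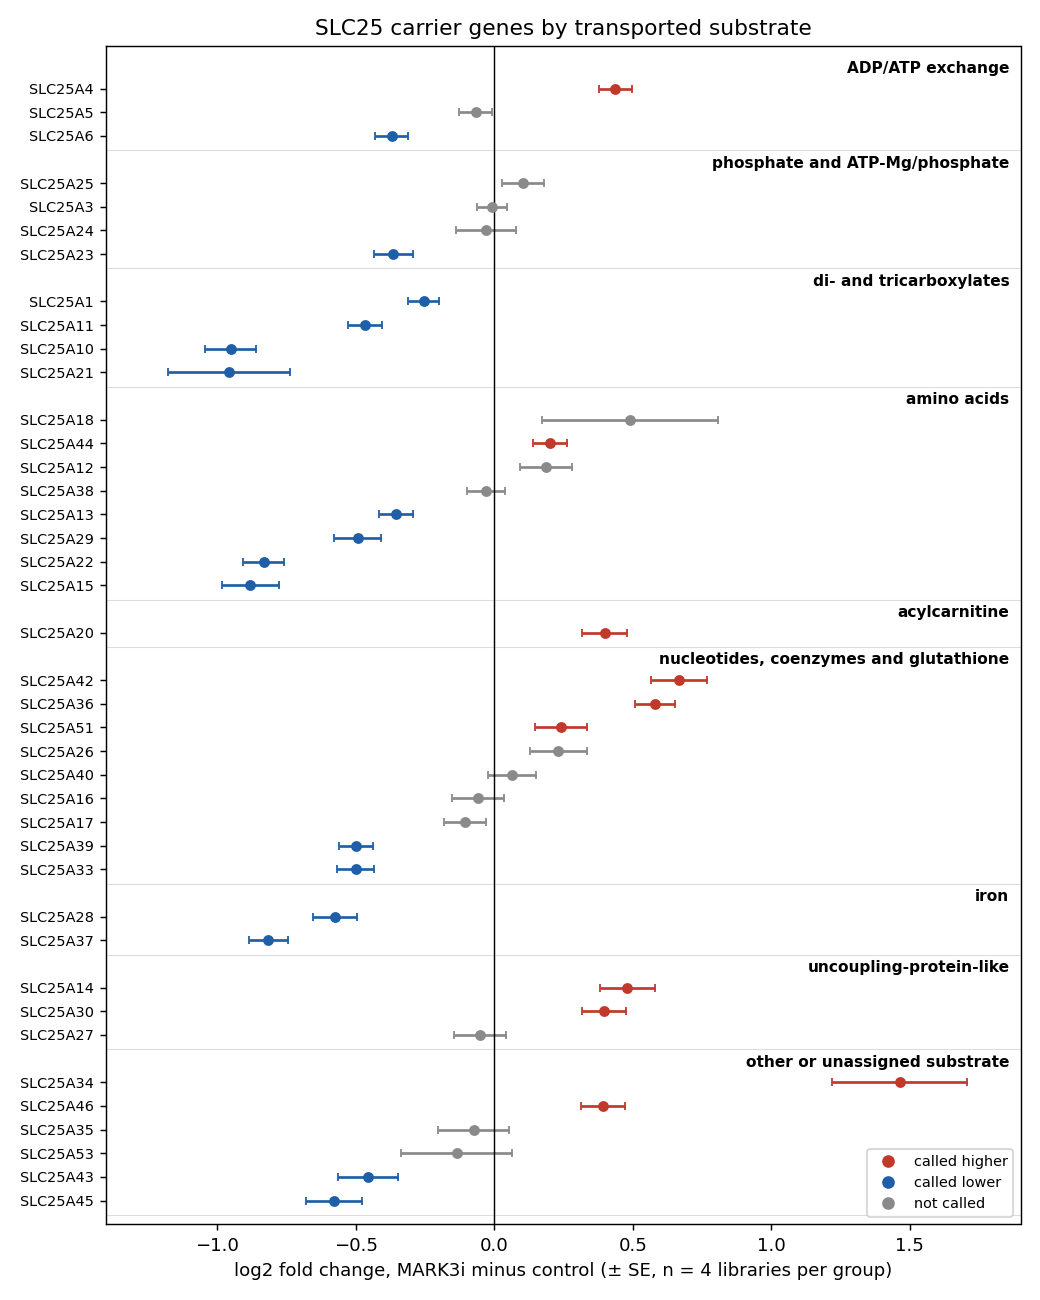
Log2 fold change (MARK3i minus control, x axis) of 40 of the 41 tested SLC25 genes by substrate class, with points for the estimates, bars for ± SE and colour for the call. The 4 carriers of di- and tricarboxylates and both iron carriers lie left of 0, and SLC25A34 at 1.46 lies farthest right.

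The ADP/ATP exchangers (adenine nucleotide translocases) bring ADP into the matrix and release ATP, and SLC25A6 was the most abundant SLC25 mRNA per kilobase of exon, ahead of SLC25A5. In CPM SLC25A6 also ranked first, but SLC25A3 (mean 861.4 in controls) stood above SLC25A5 (666.7). SLC25A6 (hg38 chrX:1386152-1392113, minus strand) stood at 1723, 1717, 1808 and 1907 CPM in controls and 1494, 1331, 1286 and 1424 CPM with MARK3i. All MARK3i libraries lay below all controls, and the log2 fold change was -0.37 ± 0.06, adjusted p = 7.54e-06. With offsets that remove each library's trend with GC content the value was -0.19 (adjusted p = 0.0073). SLC25A5, the form linked to proliferating cells, stood at 657.0, 663.0, 657.5 and 689.3 CPM in controls and 704.0, 608.7, 580.3 and 653.1 CPM with MARK3i, which overlap (-0.07 ± 0.06, adjusted p = 0.342); without MARK3i replicate 1, the highest library, it was called lower (-0.14, adjusted p = 0.0397). SLC25A4, the form best known from heart and skeletal muscle, rose. It stood at 71.42, 74.85, 75.77 and 76.14 CPM in controls and 104.7, 102.8, 95.13 and 101.2 CPM with MARK3i, with no overlap (0.44 ± 0.06, adjusted p = 8.79e-07). The testis form SLC25A31 had at most 1 count in a library and was not tested. The summed level of the class was 2530 ± 104 CPM in controls and 2121 ± 151 CPM with MARK3i (SD, n = 4). Per kilobase, SLC25A6 made up 72.1 ± 0.666% of the class in controls and 67.5 ± 0.348% with MARK3i, SLC25A5 26.9 ± 0.649% and 31.0 ± 0.399%, and SLC25A4 0.970 ± 0.0289% and 1.59 ± 0.0742%.

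Of the phosphate carriers, 1 of 4 tested members was lower and 3 were not called, against 28.3% lower over all tested genes. SLC25A3, the phosphate carrier that feeds ATP synthase, stood at 866.6, 861.6, 851.2 and 866.3 CPM in controls and 906.4, 845.5, 793.9 and 883.2 CPM with MARK3i, which overlap (-0.01 ± 0.05, adjusted p = 0.925). Of the calcium-regulated ATP-Mg/phosphate carriers, which adjust the adenine nucleotide pool of the matrix, SLC25A23 fell. It stood at 182.9, 181.2, 187.9 and 186.2 CPM in controls and 122.3, 164.5, 133.5 and 152.5 CPM with MARK3i, all MARK3i libraries below all controls (-0.36 ± 0.07, adjusted p = 0.000114); tested against a minimum fold of 1.2 it was not called. SLC25A24 (-0.03 ± 0.11) and SLC25A25 (0.10 ± 0.08) were not called, and SLC25A41 had 1 to 9 counts and was not tested.

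All 4 carriers of di- and tricarboxylates fell, and their summed level went from 516.1 ± 26.6 to 403.3 ± 17.4 CPM (SD, n = 4). SLC25A1, the citrate carrier that supplies cytosolic acetyl-CoA for lipid synthesis, was the most abundant of them per kilobase (165 in controls, 138 with MARK3i, CPM per kilobase). It stood at 307.1, 334.1, 342.0 and 337.4 CPM in controls and 275.8, 287.8, 257.4 and 285.7 CPM with MARK3i, without overlap (-0.25 ± 0.06, adjusted p = 0.000394). This call was lost with GC offsets (-0.03, adjusted p = 0.656) and against a minimum fold of 1.2 (adjusted p = 0.509), and total-count scaling brought the value to -0.15 (adjusted p = 0.0155). SLC25A11, which exchanges 2-oxoglutarate for malate in the malate-aspartate shuttle, stood at 138.5, 139.2, 154.4 and 158.8 CPM in controls and 108.6, 105.1, 102.1 and 111.9 CPM with MARK3i (-0.47 ± 0.06, adjusted p = 4.57e-07). The drop was larger for SLC25A10, which exchanges malate or succinate for phosphate. SLC25A10 (hg38 chr17:81712236-81721016, plus strand) stood at 31.95, 30.65, 36.33 and 39.55 CPM in controls and 16.66, 19.73, 17.23 and 17.63 CPM with MARK3i (-0.95 ± 0.09, adjusted p = 2.40e-09), and even the highest MARK3i library lay below the lowest control. Exons of an unnamed protein-coding gene cover 46.6% of its exon bases on the same strand, with a mean count of 0.0 for that gene. How reads on the shared exons were assigned is unknown, so that count does not show that SLC25A10 lost no reads there. SLC25A21, the carrier of 2-oxoadipate from lysine breakdown, stood at 3.994, 4.673, 2.624 and 3.043 CPM in controls and 2.091, 2.023, 1.891 and 1.314 CPM with MARK3i (-0.96 ± 0.22, adjusted p = 0.000612), without overlap but at low counts. Against control replicates 3 and 4 alone its value was -0.62 (adjusted p = 0.059). Its exons overlap those of PAX9 on the other strand over 30.3% of their length, and PAX9, with a mean count of 188.5 against 37.8, was not called (-0.06, adjusted p = 0.608). The labels do not say whether reads were assigned by strand.

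Amino acid carriers had 4 of 8 tested members lower, 1 higher and 3 not called. Over all tested genes 28.3% were lower and 29.8% higher. The summed level of these carriers was 446.4 ± 10.7 CPM in controls and 352.0 ± 12.9 CPM with MARK3i (SD, n = 4). SLC25A22, the main glutamate carrier of the class, was its most abundant member per kilobase in controls (25.7). It stood at 109.6, 113.4, 124.5 and 124.6 CPM in controls and 58.91, 76.77, 62.0 and 66.51 CPM with MARK3i, far apart (-0.83 ± 0.07, adjusted p = 8.65e-10). With MARK3i it fell to 14.4 CPM per kilobase, under the glycine carrier SLC25A38, which supplies haem synthesis and was at 22.7 and 22.3 CPM per kilobase (-0.03 ± 0.07, not called). Without division by exon length, the mean of SLC25A22 stayed above that of SLC25A38 with MARK3i (66.05 and 59.31 CPM). SLC25A15, which moves ornithine for the urea cycle and arginine metabolism, stood at 24.2, 24.32, 19.43 and 19.43 CPM in controls and 11.01, 11.64, 13.59 and 11.27 CPM with MARK3i (-0.88 ± 0.10, adjusted p = 8.94e-08). Controls 1 and 2 were higher than controls 3 and 4, and all 4 exceeded every MARK3i library. Its pseudogenes held 5.83 to 15.96% of their joint counts with it, and the one tested, SLC25A15P4, was also lower (-1.03 ± 0.34, adjusted p = 0.0112), so reads shared between near-identical copies make its value uncertain. SLC25A29, a carrier of basic amino acids, stood at 86.3, 85.78, 98.48 and 102.2 CPM in controls and 54.31, 71.2, 75.52 and 63.47 CPM with MARK3i (-0.49 ± 0.09, adjusted p = 3.92e-05) and was at -0.30 with GC offsets (adjusted p = 0.000615).

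The aspartate-glutamate exchangers, which drive the malate-aspartate shuttle, shifted in balance. SLC25A13 (citrin) stood at 76.2, 72.32, 73.39 and 75.13 CPM in controls and 60.3, 56.27, 56.95 and 58.84 CPM with MARK3i and fell (-0.36 ± 0.06, adjusted p = 2.49e-05), a call lost against a minimum fold of 1.2. SLC25A12 (aralar) stood at 13.08, 14.49, 15.5 and 15.45 CPM in controls and 16.17, 16.72, 15.76 and 17.91 CPM with MARK3i, which do not overlap but did not pass the test (0.19 ± 0.09, adjusted p = 0.0947); it was called with total-count scaling (0.29, adjusted p = 0.0106). The share of SLC25A12 per kilobase among these forms was 10.7 ± 0.858% in controls and 14.8 ± 0.745% with MARK3i (SD, n = 4). SLC25A44, which carries branched-chain amino acids, stood at 64.22, 62.97, 61.25 and 62.65 CPM in controls and 73.89, 70.12, 72.72 and 72.25 CPM with MARK3i and rose slightly (0.20 ± 0.06, adjusted p = 0.00622), a call lost against control replicates 1 and 2 alone (adjusted p = 0.0832) and against a minimum fold of 1.2. SLC25A18, the less abundant glutamate carrier, had few counts and was not called (0.49 ± 0.32), and the ornithine carrier SLC25A2 had at most 2 counts.

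SLC25A20, the carnitine-acylcarnitine carrier that brings fatty acids in for oxidation, moved opposite to the citrate carrier. It stood at 21.61, 25.35, 21.89 and 23.56 CPM in controls and 31.44, 30.88, 28.23 and 31.25 CPM with MARK3i, without overlap (0.40 ± 0.08, adjusted p = 0.00016). The fall of the citrate carrier SLC25A1 was not called with GC offsets (-0.03, adjusted p = 0.656).

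Carriers of nucleotides, coenzymes and glutathione went both ways, with 3 of 10 tested members higher, 3 lower and 4 not called. These shares are near those over all tested genes, 29.8% higher and 28.3% lower. SLC25A39, the glutathione carrier and the most abundant of the class per kilobase, stood at 426.3, 454.0, 493.6 and 504.7 CPM in controls and 319.0, 334.4, 319.2 and 356.7 CPM with MARK3i and fell (-0.50 ± 0.06, adjusted p = 1.25e-07), to -0.32 with GC offsets (adjusted p = 6.84e-07). Its paralog SLC25A40 was not called (0.06 ± 0.09). The pyrimidine nucleotide carriers, which supply the mitochondrial genome and its transcripts, went opposite ways. SLC25A33 stood at 52.23, 49.66, 50.51 and 49.15 CPM in controls and 36.53, 36, 34.19 and 35.75 CPM with MARK3i (-0.50 ± 0.07, adjusted p = 7.16e-07). SLC25A36 stood at 73.69, 73.98, 59.61 and 61.4 CPM in controls and 98.5, 98.26, 108.3 and 96.94 CPM with MARK3i (0.58 ± 0.07, adjusted p = 2.23e-07), so every MARK3i library was below the controls for the former and above them for the latter. Per kilobase, SLC25A33 gave 66.8 ± 2.38% of this pair in controls and 48.7 ± 1.94% with MARK3i (SD, n = 4).

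Among coenzyme carriers of the class, SLC25A42, which carries coenzyme A, stood at 11.83, 12.51, 12.46 and 11.47 CPM in controls and 16.31, 21.58, 19.83 and 18.6 CPM with MARK3i and rose (0.67 ± 0.10, adjusted p = 3.89e-06). Its groups did not overlap. SLC25A51, the NAD carrier, stood at 13.08, 15.37, 13.86 and 14.35 CPM in controls and 17.08, 16.99, 17.44 and 15.49 CPM with MARK3i (0.24 ± 0.09, adjusted p = 0.0295). It lost that call in 12 of 21 alternative settings. In 1 of them the threshold was 0.01, and in the others the adjusted p ran from 0.0509 to 0.538, among them DESeq2 (0.0906) and leaving out control replicate 1, 3 or 4 or MARK3i replicate 1, 2 or 3. The S-adenosylmethionine carrier SLC25A26 (0.23 ± 0.10, adjusted p = 0.058) was called in 5 settings, among them without control replicate 1 (adjusted p = 0.0334) and without MARK3i replicate 2 (adjusted p = 0.0139). Its exons overlap LRIG1 on the other strand over 12.2% of their length, and LRIG1 was higher (0.35, adjusted p = 0.00688). SLC25A16 (-0.06 ± 0.09) and SLC25A17 (-0.11 ± 0.08) were not called. The folate carrier SLC25A32 had 2 to 13 counts, and the exons of a readthrough gene cover 69.7% of its exon bases; it and SLC25A52 were not tested.

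Both mitoferrins, which bring iron in for haem and iron-sulfur clusters, fell, and their summed level went from 183.4 ± 3.46 to 108.0 ± 11.4 CPM (SD, n = 4). SLC25A37 stood at 148.8, 143.0, 139.2 and 145.9 CPM in controls and 67.9, 90.26, 87.08 and 82.0 CPM with MARK3i (-0.82 ± 0.07, adjusted p = 5.63e-10). SLC25A28 stood at 38.14, 37.54, 41.16 and 39.87 CPM in controls and 24.54, 29.31, 24.31 and 26.69 CPM with MARK3i (-0.57 ± 0.08, adjusted p = 9.13e-07). In both genes a wide gap separated the groups. SLC25A37 was the more abundant per kilobase in both groups, at 61.1 ± 1.5% of the pair in controls and 57.1 ± 2.59% with MARK3i.

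Of the uncoupling-protein-like members, SLC25A14 and SLC25A30 rose and SLC25A27 was not called (-0.05 ± 0.10). SLC25A30 stood at 40.25, 36.04, 36.82 and 33.78 CPM in controls and 54.1, 46.03, 50.16 and 43.49 CPM with MARK3i (0.40 ± 0.08, adjusted p = 0.00013). SLC25A14 stood at 10.73, 9.901, 9.676 and 11.08 CPM in controls and 14.57, 15.01, 13.73 and 14.38 CPM with MARK3i (0.48 ± 0.10, adjusted p = 0.000218). Neither gene's libraries overlapped between the groups. Per kilobase, SLC25A27 led SLC25A30 in controls (7.03 and 5.41), and SLC25A27 was also the higher in MARK3i replicates 2 to 4. In MARK3i replicate 1 SLC25A30 was the higher (7.96 against 5.69), which alone put its mean above that of SLC25A27 (7.13 and 6.78).

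Among 8 carriers of other or unassigned substrate, SLC25A34 showed the largest rise among the 41 tested members, at a low level. SLC25A34 (hg38 chr1:15736258-15741392, plus strand) stood at 1.253, 1.347, 0.738 and 1.014 CPM in controls and 2.649, 3.776, 2.872 and 2.627 CPM with MARK3i (1.46 ± 0.24, adjusted p = 1.51e-05), from raw counts of 9 to 84. Its groups did not overlap, although counting error is large at that depth. SLC25A46, an outer membrane protein of mitochondrial fusion and fission, stood at 71.11, 67.41, 56.25 and 56.56 CPM in controls and 86.51, 74.97, 90.23 and 78.89 CPM with MARK3i (0.39 ± 0.08, adjusted p = 0.000157). Controls 1 and 2 lay above controls 3 and 4, and against controls 1 and 2 alone its value was 0.24 (adjusted p = 0.0261). SLC25A45 stood at 32.81, 31.29, 40.92 and 38.7 CPM in controls and 18.96, 26.25, 24.03 and 26.62 CPM with MARK3i and fell (-0.58 ± 0.10, adjusted p = 4.19e-05), as did SLC25A43 (-0.46 ± 0.11, adjusted p = 0.000825). SLC25A35 (-0.07 ± 0.13) and SLC25A53 (-0.13 ± 0.20) were not called, and SLC25A47 and SLC25A48 had at most 2 and 14 counts in a library and were not tested.

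**Figure D2:**
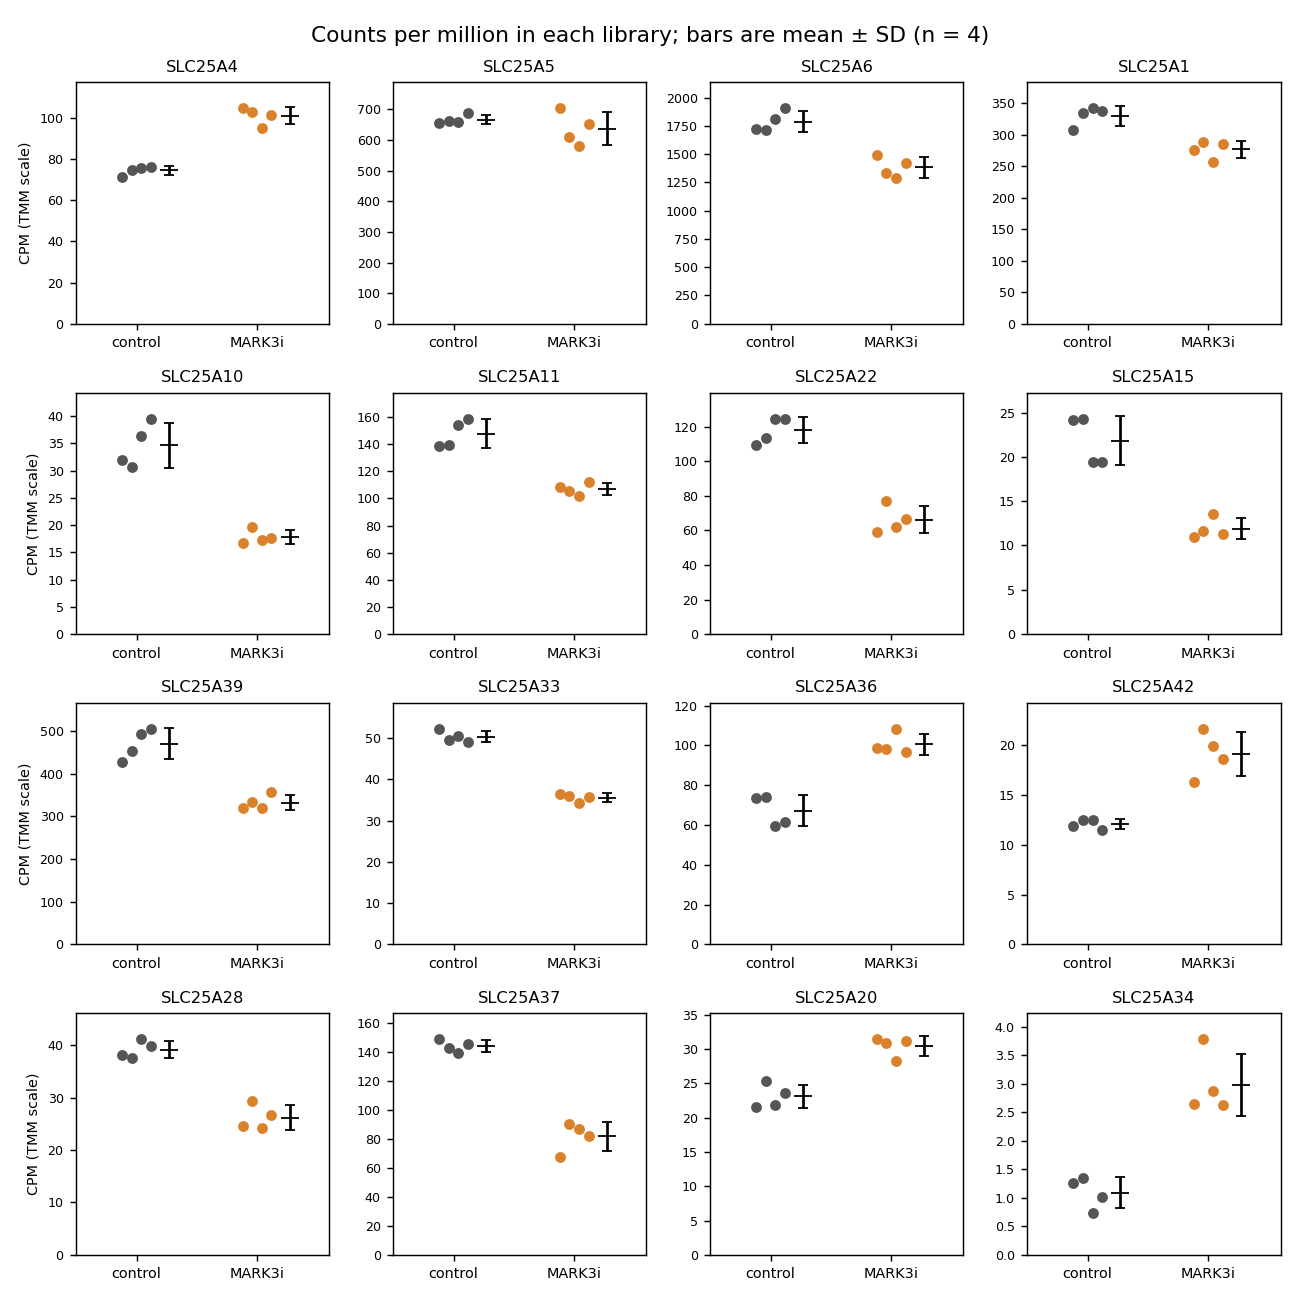
CPM after TMM scaling (y axis, from 0) of 16 SLC25 genes in each library, with control in grey, MARK3i in orange and bars for mean ± SD (n = 4). SLC25A5 is the gene shown whose groups overlap; SLC25A4, SLC25A36, SLC25A42, SLC25A20 and SLC25A34 lie higher with MARK3i and the other 10 lower.

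Ratios within a library do not depend on library scaling, so 12 pairs of related or opposed carriers were compared by their log2 count ratio with a two-sided exact permutation test (n = 4 against 4, smallest possible p = 0.0286), adjusted over the 12 pairs; 11 of them are described. In 7 of these the groups did not overlap, each at that smallest p (adjusted p = 0.0429). For SLC25A33 over SLC25A36, SLC25A1 over SLC25A20 and SLC25A12 over SLC25A13 this outcome was fixed in advance. In these pairs the libraries of both genes had already separated, in opposite directions, so the test restates that separation. SLC25A33 over SLC25A36 was -0.50, -0.57, -0.24 and -0.32 in controls and -1.43, -1.45, -1.66 and -1.44 with MARK3i, a difference of -1.09 ± 0.10 (SE). Every MARK3i library lay below every control for this pair of pyrimidine carriers. SLC25A1 over SLC25A20, citrate export against fatty acid entry, differed by -0.65 ± 0.05. Smaller differences were seen for SLC25A39 over SLC25A40 (-0.57 ± 0.18), SLC25A12 over SLC25A13 (0.54 ± 0.08), SLC25A4 over SLC25A5 (0.51 ± 0.05), SLC25A10 over SLC25A11 (-0.49 ± 0.07) and SLC25A5 over SLC25A6 (0.30 ± 0.03). With GC offsets, 3 of these differences were over 1.5 times smaller: 0.11 for SLC25A5 over SLC25A6, -0.28 for SLC25A39 over SLC25A40 and -0.40 for SLC25A1 over SLC25A20.

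In the other 4 pairs the groups overlapped. The mitoferrin ratio SLC25A28 over SLC25A37 differed by 0.24 ± 0.09 (exact permutation, adjusted p = 0.0685), SLC25A22 over SLC25A18 by -1.20 ± 0.40 (adjusted p = 0.0685), SLC25A15 over SLC25A29 by -0.37 ± 0.17 (adjusted p = 0.0935) and SLC25A23 over SLC25A24 by -0.34 ± 0.24 (adjusted p = 0.286). The SLC25A18 ratio rests on few counts of that gene. With GC offsets SLC25A23 over SLC25A24 was at -0.105 and SLC25A15 over SLC25A29 at -0.58.

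**Figure D3:**
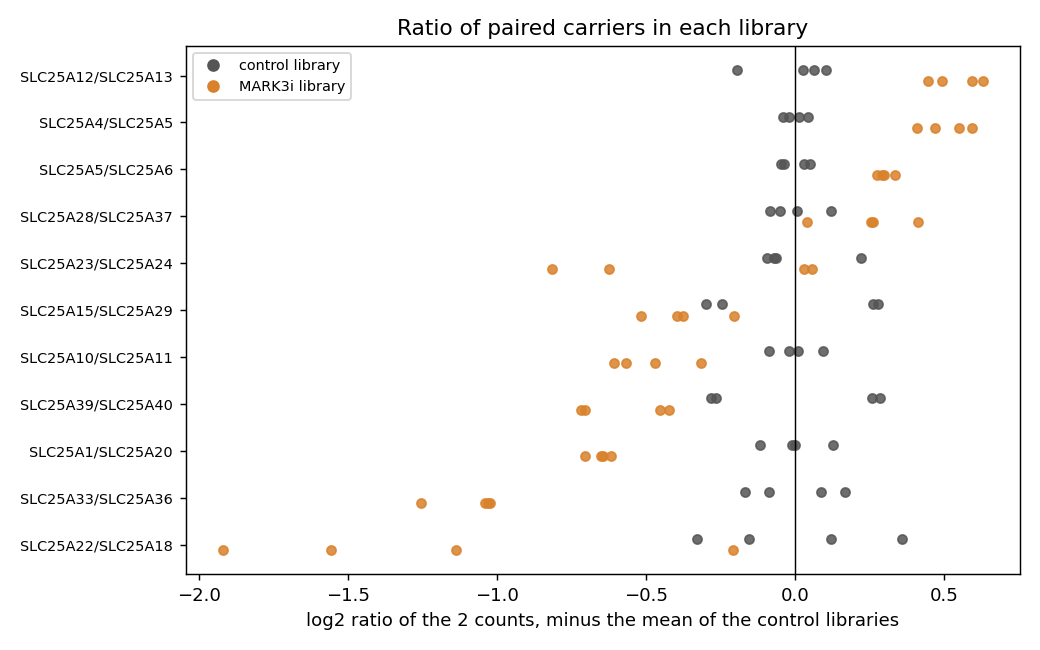
Log2 ratio of the counts of both genes in each library, minus the mean of the control libraries (x axis), for 11 carrier pairs, with control libraries in grey and MARK3i libraries in orange. SLC25A33 over SLC25A36 lies to the left, with a mean ratio of -0.41 in controls and -1.5 with MARK3i, and the groups of 7 pairs do not overlap.

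Lower members had the highest median transcript GC. Median transcript GC was 58.1% in the 17 lower members (43.9 to 67.6%), 49.0% in the 10 higher (37 to 63.8%) and 45.8% in the 14 not called, against 53.1, 47.0 and 49.4% over all tested genes. Across genes, which are not independent replicates and share libraries and depth, Spearman's rho between log2 fold change and transcript GC was -0.32 over 41 members and -0.19 over all tested genes. With GC offsets, 17 members were lower and 11 higher, and the median of the members was -0.16. SLC25A34, at 63.8% GC, and SLC25A42 rose with GC-rich transcripts.

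**Figure D4:**
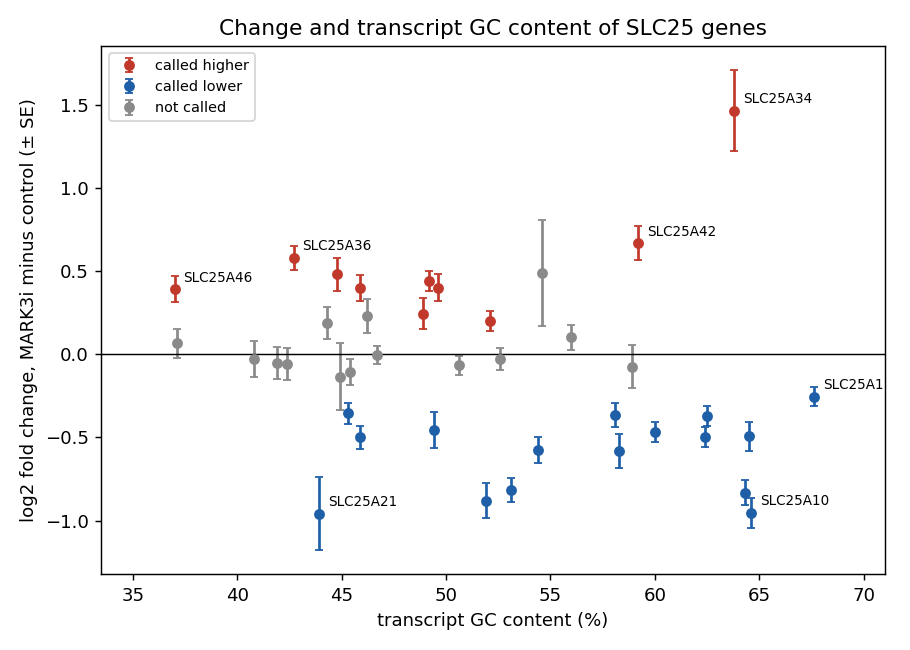
Log2 fold change (y axis, ± SE) against transcript GC content (x axis, %) for 40 of the 41 tested SLC25 genes, coloured by call. Lower genes span 43.9 to 67.6% GC, and SLC25A34 at 63.8% lies highest.

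RefSeq (GRCh38.p14) windows from 250 bases before to 50 after the start were matched for 40 of the 48 members. Their median GC was 74.0% in 15 lower, 66.7% in 9 higher and 63.0% in 12 members not called, against 66.0, 65.0 and 65.0% over all tested genes. Each window was searched for the E-box CACGTG, a palindrome read by MYC-MAX and related factors, and for TGATGCAA on both strands, the core of sites bound by ATF4 with C/EBP factors. No member window held both. The E-box was in 7 of 40 member windows (17.5%): SLC25A13, SLC25A31, SLC25A33, SLC25A36, SLC25A38, SLC25A46 and SLC25A51. Of all 27305 windows, which include genes not tested here and were not matched for GC content, 7.43% held the E-box. It was in 2 of 15 lower, 3 of 9 higher and 1 of 12 members not called, so both pyrimidine carriers hold it although they moved in opposite directions. TGATGCAA was in 0 of 40 member windows and 0.923% of all. The window of SLC25A36, the higher pyrimidine carrier, is shown with its E-box in capitals. It has 64.7% GC and lies on the plus strand at chr3:140941586-140941885, with the E-box starting at position -143 from the start.
SLC25A36: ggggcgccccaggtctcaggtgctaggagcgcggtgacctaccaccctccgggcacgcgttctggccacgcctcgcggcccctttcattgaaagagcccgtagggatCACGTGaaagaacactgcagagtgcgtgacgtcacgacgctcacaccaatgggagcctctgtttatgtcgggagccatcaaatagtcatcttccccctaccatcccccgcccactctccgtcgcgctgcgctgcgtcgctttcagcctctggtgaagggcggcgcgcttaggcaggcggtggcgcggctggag

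Genes that work with the carriers were counted in lists made alongside the members. Of all tested genes 28.3% were lower, 29.8% higher and 58.0% called, against which each list can be read. Of the machinery that imports carriers, 10 of 13 genes were lower, and AGK (-0.01 ± 0.07), TIMM9 (-0.05 ± 0.08) and TIMM29 (0.16 ± 0.08) were not called (median of the list -0.35). TOMM40, the outer membrane channel, went from 230.3 ± 13.1 to 94.69 ± 6.44 CPM (SD, n = 4; -1.28 ± 0.06, adjusted p = 5.8e-15). TIMM13 (-1.12 ± 0.07) and TIMM8A (-0.92 ± 0.10), small chaperones of the intermembrane space, and the receptor TOMM22 (-0.52 ± 0.06) fell too. The carrier insertase TIMM22 was slightly lower (-0.21 ± 0.09, adjusted p = 0.0486). Of 4 tested proteins with the carrier fold and another symbol, MTCH2 fell (-0.31 ± 0.06), and MTCH1 (-0.12 ± 0.05), UCP2 (-0.01 ± 0.11) and UCP3 (0.03 ± 0.24) were not called.

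Inner membrane transporters outside the family had 3 of 16 genes higher, 7 lower and 6 not called (median -0.05), near the 58.0% called over all tested genes. LETM1, a cation exchanger (-0.95 ± 0.06), and the sideroflexins SFXN4 (-1.16 ± 0.09), SFXN5 (-0.82 ± 0.09) and SFXN1 (-0.31 ± 0.06), the mitochondrial serine carrier, fell. MICU2, a regulator of the calcium uniporter (0.50 ± 0.07), and SFXN3 (0.28 ± 0.06) rose. The outer membrane channel VDAC1 fell (-0.36 ± 0.06), whereas VDAC2 (0.07 ± 0.06) and VDAC3 (0.09 ± 0.06) were not called.

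Enzymes on either side of the citrate and malate carriers also split, with 4 of 14 higher, 6 lower and 4 not called (median -0.07). ACLY, which cleaves exported citrate, went from 653.1 ± 29.9 to 429.6 ± 22.4 CPM (-0.60 ± 0.06). MDH2 (-0.57 ± 0.06), the matrix malate dehydrogenase, ME3 (-0.96 ± 0.11), a mitochondrial malic enzyme, and CS (-0.42 ± 0.06), citrate synthase, fell. The cytosolic ACO1 (0.62 ± 0.07), IDH1 (0.21 ± 0.06) and ME1 (0.31 ± 0.11), and the mitochondrial malic enzyme ME2 (0.20 ± 0.08), rose. Among tricarboxylic acid cycle enzymes 10 of 16 were lower, 1 higher and 5 not called (median -0.21). IDH3B (-0.55 ± 0.07), SUCLG2 (-0.44 ± 0.07), PDHA1 (-0.34 ± 0.06) and SDHA (-0.33 ± 0.05) fell, and PDHB, the partner of PDHA1 in pyruvate dehydrogenase, rose (0.21 ± 0.06).

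Of 13 regulators of mitochondrial content, 8 were lower, 2 higher and 3 not called (median -0.33), against 28.3% lower and 29.8% higher over all tested genes. The coactivators PPRC1 (-1.52 ± 0.07) and PPARGC1B (-1.57 ± 0.10), the replicative helicase TWNK (-1.52 ± 0.07) and the nuclear receptor ESRRA (-0.80 ± 0.06) fell, and the DNA polymerase POLG (0.34 ± 0.06) rose. PPARGC1A also rose at a very low level, from 0.560 ± 0.292 to 1.04 ± 0.308 CPM (SD, n = 4; 0.91 ± 0.37, adjusted p = 0.0393). Of 13 mRNAs encoded in the mitochondrial genome 6 were lower and 7 not called (median -0.13). The lower included MT-ND2 (-0.32 ± 0.05), MT-ND1 (-0.30 ± 0.06) and MT-ND5 (-0.33 ± 0.09) of complex I, and MT-CO1 of another complex (-0.13 ± 0.06, adjusted p = 0.0437). Of the other complex I mRNAs, MT-ND3 (-0.05 ± 0.06) and MT-ND6 (-0.19 ± 0.18) were not called. The unscaled share of the 13 mRNAs in all counts was 5.60 to 5.69% in controls and 5.46 to 5.69% with MARK3i, which overlap. After TMM scaling they summed to 58180 to 59380 CPM in controls and 51750 to 56370 CPM with MARK3i, which do not overlap.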

How the data were processed

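Each deposited file holds unnormalized counts for 1 sample, which the authors produced with featureCounts on hg38 alignments; this and their use of DESeq2 are per the series' design text and the labels. Aligner, annotation, strand setting and versions are unknown. Identifiers were matched to GENCODE 44 (58207 of 58735; the 528 without a match took up to 0.0979% of a library). Exon lengths and GC came from that annotation. The length of a gene was that of all its annotated exons merged, so rankings and shares per kilobase depend on exons that may not be expressed here.

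Counts were filtered with filterByExpr, scaled with TMM and tested with edgeR 4.0.16 (robust quasi-likelihood, R 4.3.3, limma 3.58.1) for MARK3i against control, with Benjamini-Hochberg adjustment over 16452 genes and a threshold of 0.05. The script was tested on simulated data. The biological coefficient of variation was 7.2% and the median SE over all tested genes 0.10. Pair ratios added 0.5 to each count. Per-library values are given in full for called members with an absolute log2 fold change of at least 1 and 1 CPM in a group. They are also given for the most abundant member of each class per kilobase and the pairs differing most. Those of other called members were added after them. Other genes of the lists were named by up to 4 smallest p-values per direction among those called. TIMM22, MT-CO1 and the uncalled genes were named after their values were seen. The substrate classes, gene lists and members were chosen with earlier results of these data known. Alternatives were DESeq2 1.42.0, other scalings, filters and thresholds, GC offsets, a replicate block and leaving out each replicate. Equal replicate numbers did not pair samples. The values of a few genes and 1 pair are not reported here.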

Additional observations from a re-analysis of the deposited data

Results flagged for a closer look

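A single library stood apart from the other 3 of its group in 3 of 82 groups examined, by its gap to the nearest library as a share of the group's range (above Dixon's critical value at 95%); chance flags about 1 in 20 groups. SLC25A24, an ATP-Mg/phosphate carrier, was at 19.43 CPM in control replicate 3 and 22.97 to 23.57 CPM in the other controls (0.855). SLC25A25, of the same class, was at 32.36 CPM in MARK3i replicate 4 and 36.60 to 36.99 CPM in the other MARK3i libraries (0.916). SLC25A36, the higher pyrimidine carrier, was at 108.3 CPM in MARK3i replicate 3 and 96.94 to 98.50 CPM in the others (0.863), all above the controls.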

How the results depend on the processing

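Across 21 alternative settings, 14 to 18 members were called lower and 8 to 13 higher, and 21 of the 27 called members kept call and direction in every one; SLC25A1, SLC25A13, SLC25A21, SLC25A23, SLC25A44 and SLC25A51 lost the call in at least 1. No called member changed sign in these settings, and 9 of the 14 members not called did in at least 1, among them SLC25A40 with control replicates 1 and 2 alone (-0.12). The median log2 fold change of the members moved by more than the spread between libraries with total counts (0.036, a change of sign) and with GC offsets (-0.156). With the replicate block, 17 members were lower and 11 higher, with a median of -0.07; same-numbered samples correlated by 0.131, -0.088, -0.053 and 0.084 in their deviations, so the numbers do not pair them. Comparisons with control replicates 1 and 2 alone, and 3 and 4 alone, were chosen after seeing the data. Total counts also brought SLC25A44 to 0.307 and SLC25A1 to -0.15. The 12 pair differences stayed within 1 SD when 2 in place of 0.5 was added to each count. Leaving out 1 of 4 libraries cannot move a pair difference by 1 SD, so those runs do not measure how stable the pairs are. GC offsets, added for pairs after seeing the data, moved SLC25A5 over SLC25A6 to 0.11, SLC25A39 over SLC25A40 to -0.281 and SLC25A1 over SLC25A20 to -0.4, and left the others within 1 SD. Depth limits the 7 untested members and SLC25A18, SLC25A21, SLC25A34 and SLC25A53, and counts without molecular identifiers are not independent molecules.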
